A study of Homo sapiens with 4 samples.

Results

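The genes described here are 8 lineage genes of the sympathetic nervous system and of neural progenitors, of 20090 protein-coding genes examined: PHOX2A, GATA3, DBH, HAND2 and TFAP2B on the sympathetic side, and SOX1, NES and OLIG2 on the progenitor side. They were named as a list, drawn up with earlier results of these data known, and all 8 were found in the annotation. Occupancy was measured in the Ewing sarcoma cell line SK-N-MC, with no treatment named, by ChIP-seq on chromatin cut with micrococcal nuclease and sonication. The libraries were an immunoprecipitation of FLI1, of SSRP1 and of acetylated lysine 27 of histone H3 (H3K27ac), with 1 library each, and 1 input library that the authors used as the control for peak calling. With 1 library per target there was no replicate check and no p-value, and a gene or region is described by the peaks that the deposited lists place there. The lists held 36305 FLI1, 19855 SSRP1 and 37195 H3K27ac peaks on chromosomes 1 to 22 and X, and gave no height or read depth.

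Noradrenergic neurons of the sympathetic nervous system arise from the neural crest under a set of transcription factors that includes PHOX2A, HAND2, GATA3 and TFAP2B. These factors also mark the core circuitry of neuroblastoma. DBH is the enzyme that turns dopamine into noradrenaline, and PHOX2A is a known activator of its gene. SOX1, OLIG2 and the filament protein nestin, the product of NES, are classic markers of neuroepithelial and glial progenitors. EWS-FLI1, the fusion protein that drives Ewing sarcoma, can bind DNA at the GGAA core shared by ETS factors, and it both opens enhancers and silences genes. The antibody was raised against FLI1, and these data do not separate fused from unfused FLI1. SSRP1 is a subunit of the histone chaperone FACT, and H3K27ac marks active promoters and enhancers. DBH and NES encode an enzyme and a structural protein, so 6 of the 8 genes are regulators in the strict sense.

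Most of the 8 genes had a FLI1 peak near the start of the gene with neither of the other marks beside it. Within 2.5 kb of a transcription start site (TSS), PHOX2A, GATA3, DBH, SOX1, NES and OLIG2 had FLI1 and no H3K27ac or SSRP1. TFAP2B had all 3 marks, and HAND2 had SSRP1 and H3K27ac without FLI1. In all, FLI1 lay at 7 of the 8 genes and at 29.0% of all protein-coding genes, SSRP1 at 2 and 35.8%, H3K27ac at 2 and 57.9%, and FLI1 without H3K27ac at 6 and 4.65%. The sequences under the FLI1 peaks in these windows are shown because the GGAA core is the element FLI1 reads. They are the plus strand of hg19, and capitals mark every GGAA and its reverse complement TTCC.
PHOX2A, chr11:71956647-71956873: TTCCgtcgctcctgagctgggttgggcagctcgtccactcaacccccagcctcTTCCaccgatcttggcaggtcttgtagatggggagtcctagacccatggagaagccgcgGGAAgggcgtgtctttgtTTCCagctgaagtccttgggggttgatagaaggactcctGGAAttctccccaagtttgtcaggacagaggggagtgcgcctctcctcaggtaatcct
GATA3, chr10:8096288-8096514: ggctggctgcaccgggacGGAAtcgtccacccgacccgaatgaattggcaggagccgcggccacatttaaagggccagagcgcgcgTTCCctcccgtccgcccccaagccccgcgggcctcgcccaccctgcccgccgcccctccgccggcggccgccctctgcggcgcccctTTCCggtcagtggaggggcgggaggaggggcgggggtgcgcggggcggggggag
DBH, chr9:136503478-136503747: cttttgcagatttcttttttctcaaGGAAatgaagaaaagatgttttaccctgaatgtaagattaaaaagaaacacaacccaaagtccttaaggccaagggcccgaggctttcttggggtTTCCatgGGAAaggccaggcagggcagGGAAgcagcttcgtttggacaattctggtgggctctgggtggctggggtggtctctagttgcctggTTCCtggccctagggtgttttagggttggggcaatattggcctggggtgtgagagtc
NES, chr1:156645282-156645508: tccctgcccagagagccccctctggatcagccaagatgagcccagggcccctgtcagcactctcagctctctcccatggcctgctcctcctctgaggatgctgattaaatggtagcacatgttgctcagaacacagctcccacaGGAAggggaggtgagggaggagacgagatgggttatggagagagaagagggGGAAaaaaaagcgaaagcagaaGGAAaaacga
OLIG2, chr21:34397727-34397975: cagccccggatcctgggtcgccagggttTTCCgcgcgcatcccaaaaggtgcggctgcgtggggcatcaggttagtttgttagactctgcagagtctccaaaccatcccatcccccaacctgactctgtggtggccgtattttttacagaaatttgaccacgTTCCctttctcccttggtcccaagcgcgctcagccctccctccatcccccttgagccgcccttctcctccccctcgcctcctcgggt
TFAP2B, chr6:50785103-50785373: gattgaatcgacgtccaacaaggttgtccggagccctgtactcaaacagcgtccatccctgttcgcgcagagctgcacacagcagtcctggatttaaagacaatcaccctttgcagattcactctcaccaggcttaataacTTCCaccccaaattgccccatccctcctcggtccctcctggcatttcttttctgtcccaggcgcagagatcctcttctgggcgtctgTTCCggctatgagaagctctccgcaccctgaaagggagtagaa
The SOX1 peak lies in the untranslated end of the transcript, and for it only the 30 bases around its ETS core are shown, with the core in capitals.
SOX1, chr13:112723523-112723552: cctccgcgttgCTTCCGGacggcgccgacc

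None of the 7 peaks held the tandem GGAA repeat typical of EWS-FLI1 enhancers. The longest run in each was 1 GGAA, and the number of cores on both strands was 5 at PHOX2A and DBH, 4 at SOX1, 3 at GATA3 and NES, and 2 at OLIG2 and TFAP2B. Over the 20589 FLI1 peaks of up to 300 bp, the median was 2 cores, 76.1% held at least 1, and 0.821% held a run of at least 4. A longer ETS core, CCGGAAG or CCGGAAA searched on both strands, lay in the GATA3 and SOX1 peaks and in none of the other 5. It occurred in 4.21% of all FLI1 peaks of up to 300 bp (95% exact interval 3.94 to 4.49), and in 4.96% (3.78 to 6.38) of those within 2.5 kb of a TSS and without H3K27ac. Among such narrow peaks within 2.5 kb of a TSS and with H3K27ac, the class of the TFAP2B peak, it occurred in 20.8% (18.8 to 22.8). That class was richer in CpG, with a median ratio of observed to expected CpG of 0.753, against 0.372 without H3K27ac, while the GATA3 peak had 0.860 and the SOX1 peak 1.43. At GATA3 the core lay at chr10:8096460-8096466, starting 191 bp before the canonical TSS. A match is a description of the letters and was not tested as a binding site.

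**Figure D1:**
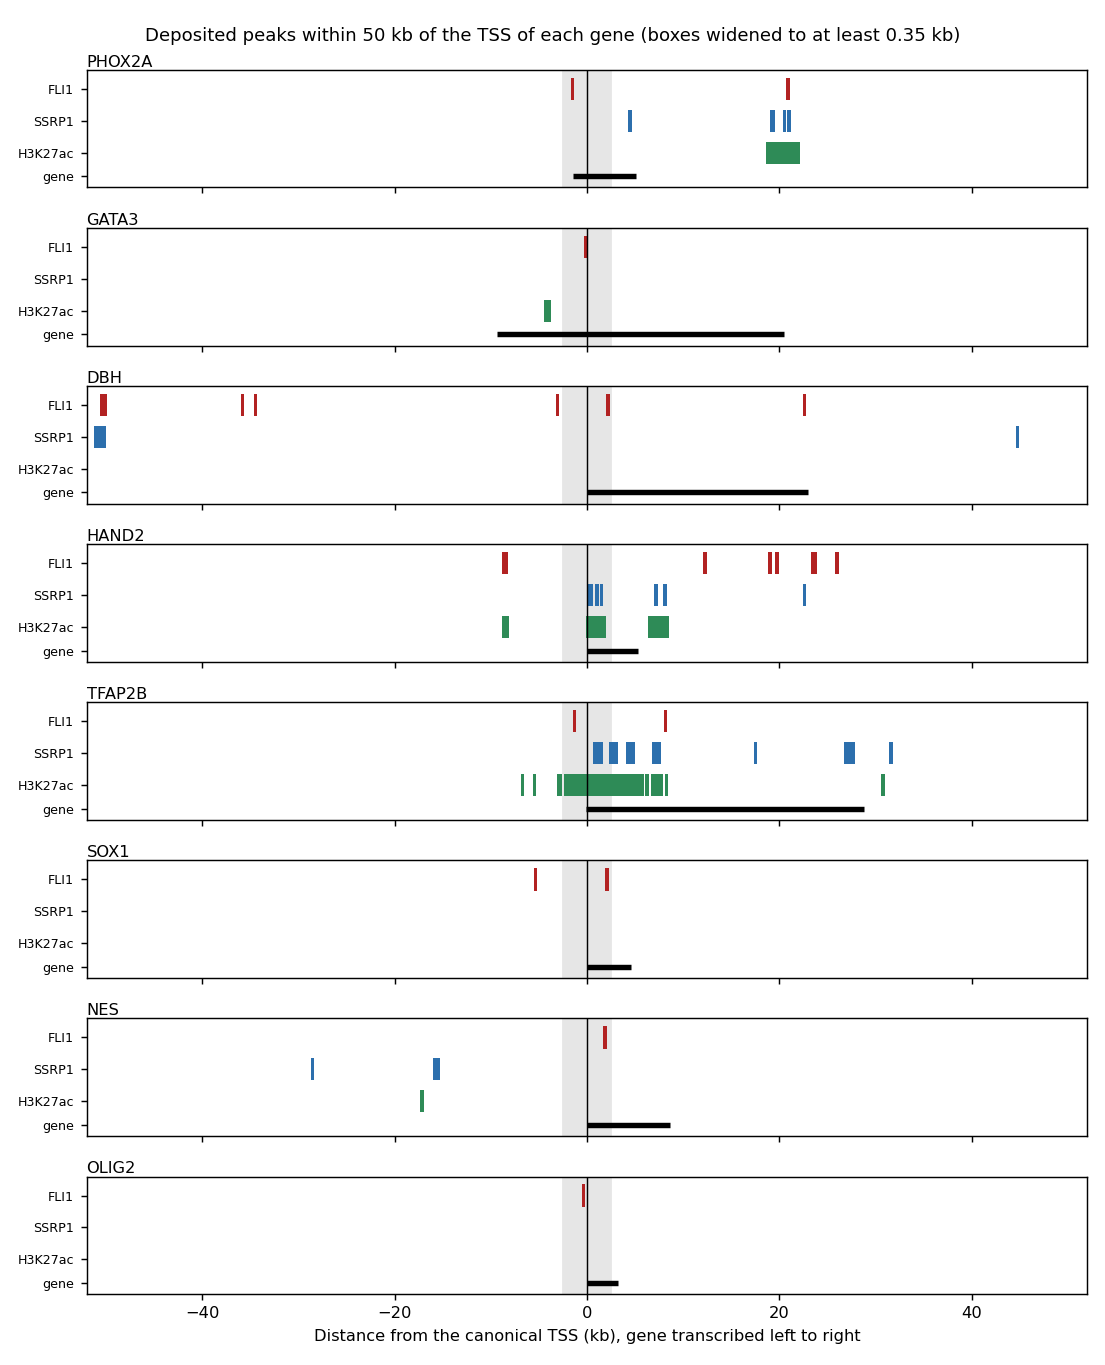
FLI1, SSRP1 and H3K27ac peaks (rows, coloured boxes) by distance from the canonical TSS in kb, for each of the 8 genes, with the gene body as a black bar and 2.5 kb on each side of the TSS in grey. PHOX2A, GATA3, DBH, SOX1, NES and OLIG2 have a FLI1 box and no other box in the grey band, while at HAND2 and TFAP2B acetylation covers the TSS.

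Among the sympathetic regulators, PHOX2A (chr11:71950121-71956708, minus strand) had a FLI1 peak of 227 bp, 1427 bp upstream of its TSS. That peak covers the start of a PHOX2A transcript with no defined coding sequence, outside the annotation's basic set. A SSRP1 peak of 488 bp (chr11:71950522-71951009) lay 4211 bp downstream, at the far end of the gene in its untranslated region, without H3K27ac. This SSRP1 peak was 1227 bp from the start of a coding PHOX2A transcript that is also outside the basic set. The nearest H3K27ac peak, of 3459 bp, was 18.6 kb away and covered the promoter of INPPL1, the neighbouring gene of a lipid phosphatase. A FLI1 peak of 475 bp and 3 SSRP1 peaks met it there, so the acetylated chromatin within 50 kb of PHOX2A lay at the neighbour's promoter.

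GATA3 (chr10:8087341-8117161), a zinc finger factor needed for sympathetic neurons, had the FLI1 peak closest to a TSS of the 8 genes, at 137 bp upstream and 227 bp wide, inside an intron of a longer GATA3 transcript. It was the only FLI1 peak within 50 kb of the gene. An H3K27ac peak of 643 bp (chr10:8092232-8092874) lay 3.78 kb upstream, in an exon of the antisense transcript GATA3-AS1, and did not meet it. The nearest SSRP1 peak was 458 kb away. Within 1 Mb on each side the lists held 4 FLI1, 2 SSRP1 and 7 H3K27ac peaks, the fewest for each mark around any of the 8 genes, and the FLI1 density of chromosome 10 as a whole was 1.79 peaks per Mb (chromosome median 11.8). SSRP1 was also sparse on chromosome 10, at 1.57 peaks per Mb (median 6.81), while H3K27ac had 8.26 (median 12.3), and the part of this in the missing SSRP1 at GATA3 was not tested.

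DBH (chr9:136501485-136524451) had 6 FLI1 peaks within 50 kb, more than 87.3% of genes, and no acetylated peak in that range. The peak inside the window, of 270 bp, lay in an intron 1993 bp downstream of the TSS, and the next, of 249 bp, lay 2967 bp upstream, just outside it. A FLI1 peak of 369 bp lay in the untranslated region at the end of the gene. The other 3 lay nearer to FAM163B, the upstream neighbour: those of 227 and 259 bp in its intron, and that of 759 bp at its TSS, where it met SSRP1 of 1285 bp and H3K27ac of 1801 bp. That H3K27ac peak was the nearest to DBH and ended 50040 bp from its TSS. None of the FLI1 peaks in or directly upstream of DBH met either other mark.

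HAND2 (chr4:174446120-174451380, minus strand), a basic helix-loop-helix factor of sympathetic neurons, heart and limb, was acetylated at its start. A H3K27ac peak of 2044 bp covered the TSS, and 3 SSRP1 peaks of 478, 359 and 295 bp lay inside it, from 148 to 1340 bp downstream of the TSS. A second acetylated region of 2222 bp, 6.34 kb downstream, held SSRP1 peaks of 392 and 460 bp. FLI1 had 6 peaks within 50 kb, but the nearest lay 8239 bp upstream in HAND2-AS1, the divergent non-coding gene, where a peak of 546 bp met H3K27ac of 723 bp. The other 5, of 227 to 659 bp, lay from 12.1 to 25.8 kb downstream without H3K27ac or SSRP1. FLI1 and SSRP1 thus both lay around HAND2 without meeting in any of their peaks within 50 kb.

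TFAP2B (chr6:50786436-50815332), an AP-2 factor of the neural crest, had the widest acetylated region of the 8 genes. Its H3K27ac peak spanned 8240 bp (chr6:50784237-50792476) across the TSS, and only 114 of the H3K27ac peaks (0.306%) were wider. Within it lay SSRP1 peaks of 1026, 866 and 927 bp, and a further 977 bp peak lay just beyond in H3K27ac of 1287 bp. Between 6.49% and 10.2% of the SSRP1 list was wider than these 4 peaks. The FLI1 peaks were narrow by comparison, at 271 bp, 1211 bp upstream of the TSS, and at 297 bp, 8011 bp downstream, and both met H3K27ac and neither met SSRP1. A SSRP1 peak of 1190 bp at the end of the gene, 26.7 kb from the TSS, met neither other mark.

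The 3 progenitor genes each had FLI1 alone. SOX1 (chr13:112721463-112726020), a SoxB1 factor of the neuroepithelium, had a FLI1 peak of 228 bp in its untranslated region, 1895 bp from the TSS, and another of 251 bp 5294 bp upstream, in an intron of the overlapping transcript SOX1-OT. No SSRP1 peak lay within 50 kb, the nearest being 76.6 kb away, and the nearest H3K27ac peak was 520 kb away, a distance that 2.39% of genes exceeded. OLIG2 (chr21:34398243-34401504), a basic helix-loop-helix factor of motor neuron and oligodendrocyte progenitors, had a single peak within 50 kb, a FLI1 peak of 249 bp located 268 bp upstream of its TSS. The nearest SSRP1 and H3K27ac peaks were 254 and 204 kb away. NES (chr1:156638555-156647199, minus strand) had a FLI1 peak of 227 bp in an intron 1691 bp downstream of the TSS, as its only FLI1 peak within 50 kb. SSRP1 of 644 bp lay 15.3 kb and H3K27ac of 311 bp 17.0 kb upstream, side by side without meeting each other. Both lay nearer to a TSS of CRABP2, the upstream neighbour, at 12220 and 10869 bp. Another SSRP1 peak, of 290 bp and 28.4 kb from the NES TSS, covered a TSS of CRABP2.

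**Figure D2:**
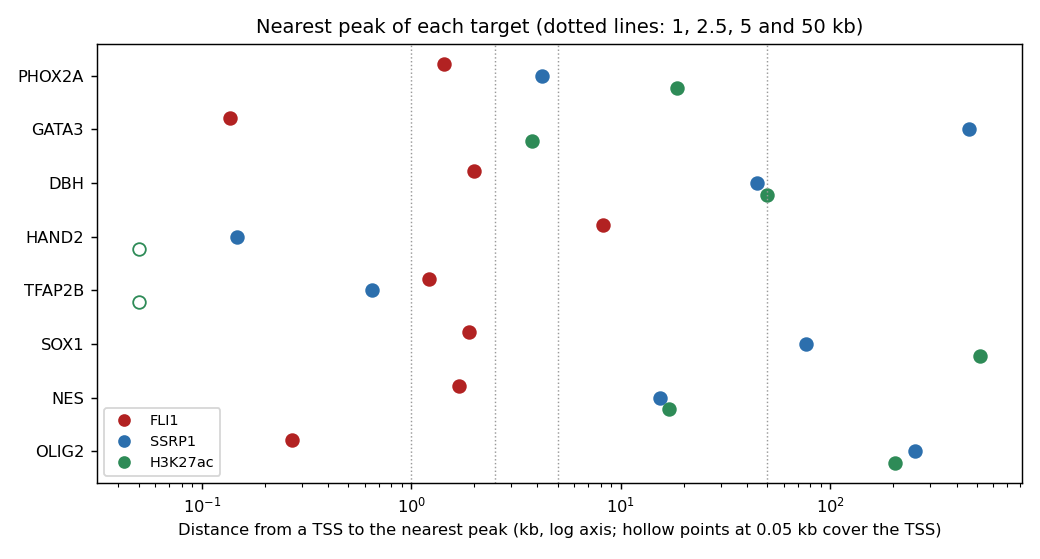
Distance in kb (log axis) from a TSS of each gene to the nearest peak of FLI1, SSRP1 and H3K27ac, with hollow points for a peak that covers the TSS and dotted lines at the windows used. FLI1 lies nearest in PHOX2A, GATA3, DBH, SOX1, NES and OLIG2, between 0.137 and 1.99 kb, while H3K27ac in those genes lies between 3.78 and 520 kb away.

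How many genes carried FLI1 turned on the window. Within 1 kb of a TSS only GATA3 and OLIG2 had FLI1, within 2.5 and 5 kb 7 of the 8 had it, and within 50 kb all 8. Over all protein-coding genes FLI1 lay within 1 kb at 24.5%, within 2.5 kb at 29.0%, within 5 kb at 34.4% and within 50 kb at 71.8%. SSRP1 lay at 2 of the 8 genes within 1 and 2.5 kb, at 3 within 5 kb, where PHOX2A joined HAND2 and TFAP2B, and at 5 within 50 kb, against 33.6%, 35.8%, 38.4% and 61.3% of all genes. H3K27ac lay at 2, 2, 3 and 5 of the 8 genes, with GATA3 the third within 5 kb, against 56.7%, 57.9%, 59.5% and 76.6% of all genes.

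FLI1 without H3K27ac in the same window was found at 2 of the 8 genes within 1 kb, 6 within 2.5 kb, 5 within 5 kb and 3 within 50 kb. The same call was made at 3.0%, 4.65%, 6.39% and 10.0% of all genes. Of the 8 genes, all 6 without H3K27ac within 2.5 kb had FLI1, against 11.0% (interval 10.4 to 11.7) of the 8466 such genes of the annotation. Since the list was drawn up with these calls known, the share is a description of the chosen genes and says nothing about the lineages. The median distance from a TSS to FLI1 was 1559 bp in these 6 genes, and 2 of the 6 had it within 1 kb. Over the 934 genes of the annotation with FLI1 and no H3K27ac, the median was 636 bp and 62.1% (58.9 to 65.2) had FLI1 within 1 kb. SSRP1 accompanied FLI1 at 0 of the 6 genes and at 27.6% (24.8 to 30.6) of the 934.

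The FLI1 peaks in the 2.5 kb windows were all narrower than the list's median. Those at PHOX2A, GATA3 and NES had 227 bp, the smallest width in the list, which 6662 FLI1 peaks (18.4%) shared. MACS2 by default reports no peak shorter than its estimate of fragment length, so this width is the floor of a list called with that default. SOX1 had 228 bp, OLIG2 249 bp, DBH 270 bp and TFAP2B 271 bp, and the list's median was 283 bp. Among the 1948 FLI1 peaks within 2.5 kb of any coding TSS that lacked H3K27ac, 45.9% were no wider than 270 bp and the median was 281 bp. When each list was limited to peaks at or above its own median width, FLI1 lay at 0 of the 8 genes and at 20.1% of all genes, and FLI1 without H3K27ac at 0 of the 8 and at 3.71% of all. SSRP1 and H3K27ac stayed at HAND2 and TFAP2B under the same limit, which kept them at 24.4% and 50.1% of all genes.

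**Figure D3:**
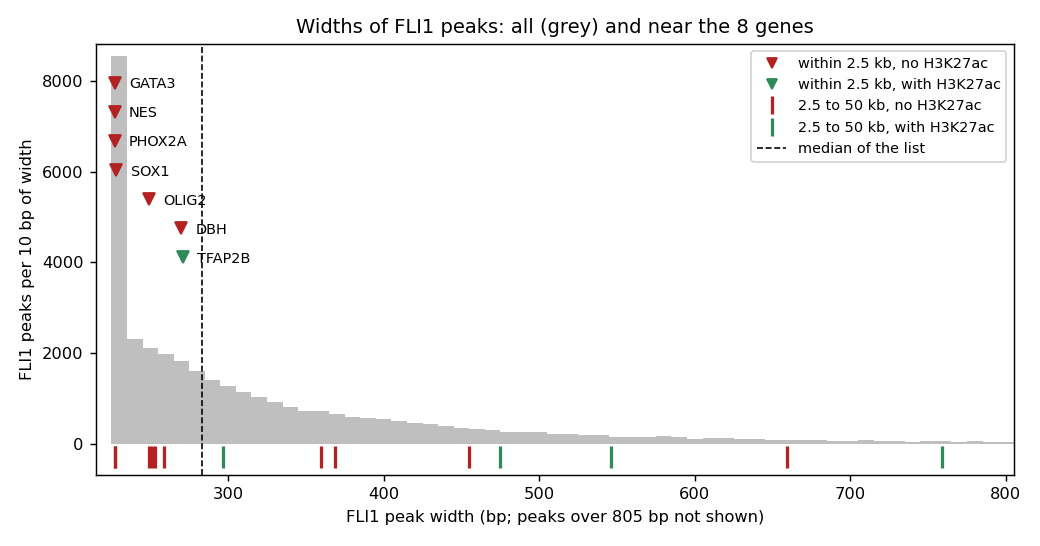
Number of FLI1 peaks per 10 bp of width (grey bars), with the 7 peaks within 2.5 kb of a TSS of the 8 genes as triangles and the 14 peaks from 2.5 to 50 kb as ticks under the axis, red without and green with H3K27ac. All triangles lie left of the median of 283 bp, while the ticks reach 759 bp.

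Over the whole list, the share of FLI1 peaks that met H3K27ac was lowest in the narrowest class. Of all FLI1 peaks of 227 bp, 10.9% (interval 10.1 to 11.6) met H3K27ac, against 76.6% (74.9 to 78.3) of those over 600 bp. Within 2.5 kb of a TSS the shares were 47.7% (44.0 to 51.4) and 91.9% (89.7 to 93.8), so even the narrowest promoter peaks were acetylated in a large fraction of cases. The intervals cover counting error only, and peaks are not replicates. No read counts stood behind these peaks in the files, so the strength of FLI1 at the 8 genes could not be compared with that elsewhere.

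**Figure D4:**
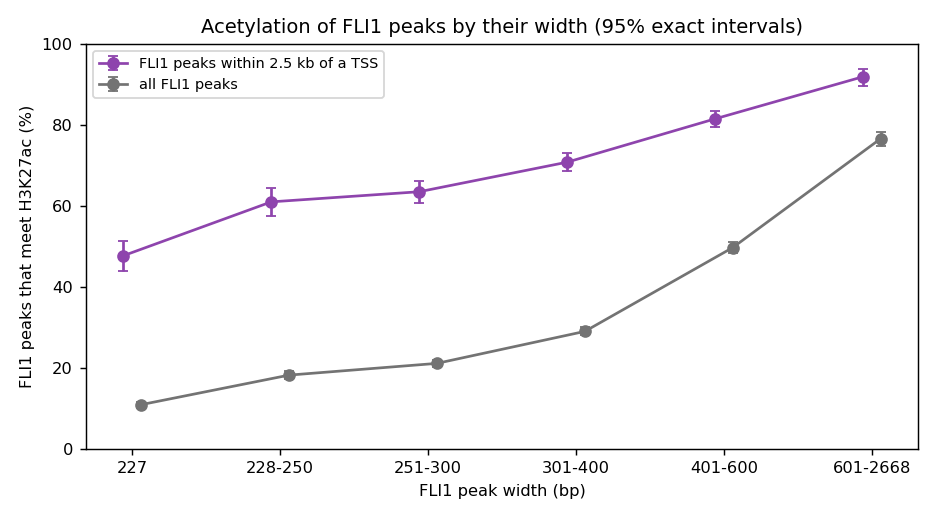
Percentage of FLI1 peaks that meet H3K27ac by class of FLI1 peak width in bp, for peaks within 2.5 kb of a coding TSS (purple) and for all peaks (grey), with 95% exact intervals. The share climbs with width in both, to 91.9% and 76.6% in the widest class, and is higher near a TSS in every class.

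Within 50 kb of the 8 genes there were 21 FLI1, 21 SSRP1 and 14 H3K27ac peaks. Peaks were taken to meet if their overlap made up 20% or more of either. Of the 21 FLI1 peaks, 5 met H3K27ac (23.8%, interval 8.22 to 47.2) and 2 met SSRP1 (9.52%, 1.17 to 30.4), against 28.4% and 17.2% of all FLI1 peaks, and these intervals include the shares of the whole list. Both FLI1 peaks that met SSRP1 lay at a neighbour's promoter, INPPL1 or FAM163B. Of the 17 FLI1 peaks whose nearest coding TSS was that of the lineage gene, 3 met H3K27ac, at HAND2 and TFAP2B, and 0 met SSRP1. A count of 0 of 17 allows a share of up to 17.6% by the limit of 3 counts, and of up to 19.5% by the exact interval. Of the 21 SSRP1 peaks, 13 met H3K27ac (61.9%, interval 38.4 to 81.9), beside 60.6% of all SSRP1 peaks. FLI1 was met by 2 of the 21 (9.52%, 1.17 to 30.4), beside 31.3% of all SSRP1 peaks, a share just above that interval. Peaks of 1 locus are not independent, and the loci were chosen with FLI1 and SSRP1 calls known.

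The promoters of all but 1 of the 8 genes had a higher ratio of observed to expected CpG than that of the median gene. Within 1 kb on each side of the canonical TSS, the ratio of observed to expected CpG was 0.888 at SOX1, 0.844 at HAND2, 0.808 at GATA3, 0.708 at NES, 0.693 at PHOX2A, 0.678 at OLIG2, 0.659 at TFAP2B and 0.311 at DBH. The median was 0.635 over all genes, 0.703 over the 11624 genes with H3K27ac, 0.486 over the 934 genes with FLI1 and no H3K27ac, and 0.326 over the 6962 genes with no mark. All of the 8 except DBH lay above the median of all genes, both with acetylation (HAND2, TFAP2B) and without it, and SOX1, HAND2, GATA3 and NES also lay above that of the genes with H3K27ac. DBH, the enzyme gene, was the 1 with a ratio below the median of all genes. The ratio is not the number of CpGs, which also depends on GC content. TFAP2B had the lowest GC content of the 8, at 43.5%, against a median of 55.9% over all genes, while DBH had 59.0%.

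In the 2.5 kb window, FLI1 without acetylation lay at 3 of 40 other genes of the same lineages, beside 4.65% of all genes. These other genes were listed by general knowledge, but with earlier results of these data known, so they are no independent list. Over all coding genes, the window held FLI1 at 29.0%, SSRP1 at 35.8% and H3K27ac at 57.9%. Of 20 further sympathetic genes, 7 had FLI1 within 2.5 kb, 9 had SSRP1 and 8 had H3K27ac, while 1 had FLI1 without H3K27ac, namely TBX2, where SSRP1 was also present. GATA2, TFAP2A, SOX11, ALK and MYCN carried all 3 marks. TH, the enzyme that begins catecholamine synthesis, and CHGA, a secretory granule protein, carried none. Of 20 further progenitor genes, 8 had FLI1, 11 SSRP1 and 10 H3K27ac, and 2 had FLI1 without H3K27ac: OLIG3, where a FLI1 peak covered a TSS, and NEUROG2, where SSRP1 lay beside it. SOX2, NKX2-2, NKX6-1, HES1, MSI1 and POU3F2 carried all 3. OLIG1, the neighbour of OLIG2, carried none.

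Over both of these lists, FLI1 without H3K27ac lay at 3 of 40 genes (7.50%), beside the background of 4.65%. With only peaks at or above the median width, it lay at 0 of the 8 genes and at 3 of these 40. FLI1 lay at 15 of the 40 (37.5%), SSRP1 at 20 (50.0%) and H3K27ac at 18 (45.0%), beside 29.0%, 35.8% and 57.9% of all genes. Of 10 markers of Ewing sarcoma, 9 carried all 3 marks and 10 carried H3K27ac. All 3 marks lay at 3483 of the 20090 coding genes. These markers were chosen as EWS-FLI1 targets, so FLI1 at them is no independent result. SOX2 and NKX2-2 are in this list and also among the progenitor genes.

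**Figure D5:**
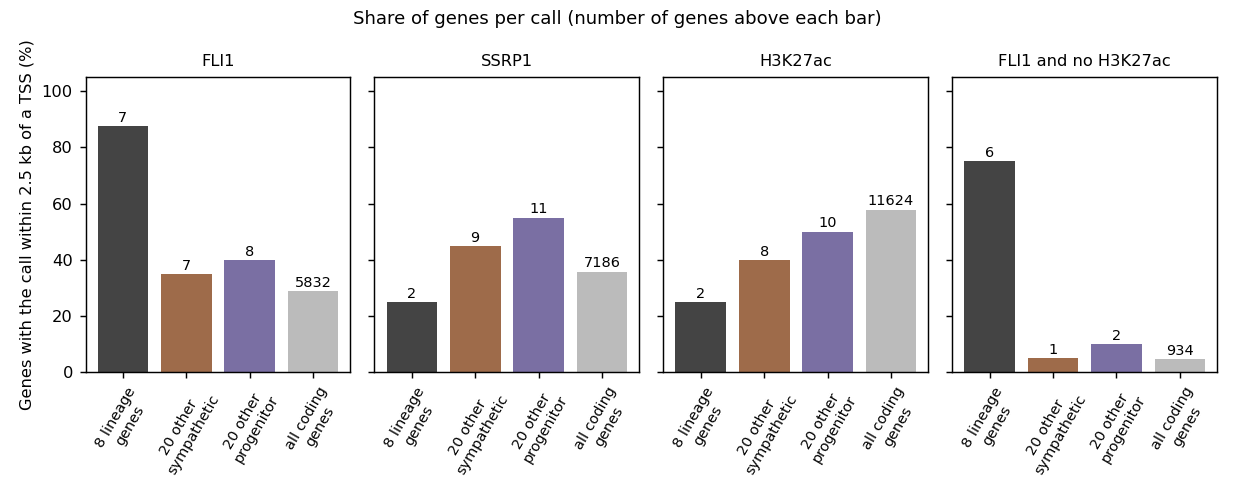
Percentage of genes with FLI1, SSRP1, H3K27ac, or FLI1 without H3K27ac within 2.5 kb of a TSS, for the 8 lineage genes, 20 other sympathetic genes, 20 other progenitor genes and all 20090 coding genes, with the number of genes above each bar. FLI1 without H3K27ac stands at 75.0%, 5.0%, 10.0% and 4.65%, and the 8 genes and both other lists were drawn up with earlier results of these data known.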

How the data were processed

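ChIP-seq peak lists of FLI1, SSRP1 and H3K27ac in SK-N-MC cells were analysed, 1 library per target, grouped by sample title. Per the series' design text, chromatin was cut with micrococcal nuclease and sonicated, and the authors mapped reads with Bowtie2 (hg19) and called each library's peaks against input, keeping a q-value of 0.05. The submitters' processing notes name MACS2 2.2.7.1. Filters for duplicate or multiply mapped reads are not given in the sources used here. The deposited lists give only chromosome, start, end and name, and other values such as a score, fold or read depth were not analysed here.

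Repeated intervals were counted once, and coordinates were made 1-based. All peaks lay within the GRCh37 chromosome lengths. TSSs are those of basic transcripts of protein-coding genes in GENCODE release 44 mapped to GRCh37, and a peak was called at a gene when 1 bp of it met the window. Shared peaks needed 20% of either peak. Intervals are 95% Clopper-Pearson. Sequence came from GRCh37. All 8 genes are named, and of the other lists those with FLI1 and no H3K27ac, with further examples chosen after their values were seen. Not every listed gene has its own values reported here. The members and lists were chosen with earlier results of these data known. On simulated data, 1600 of 1600 window calls and 1000 of 1000 overlap calls were right. Alternatives covered the window, TSS choice, peak width, midpoint, overlap and distance. Python 3.11.15, numpy 2.4.6, scipy 1.17.1, pysam 0.24.0, matplotlib 3.10.9 and samtools 1.23.1 were used.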

Additional observations from a re-analysis of the deposited data

How the results depend on the processing

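Of the calls at the 8 genes, those for FLI1 depended most on the settings. FLI1 lay at 7 genes and FLI1 without H3K27ac at 6 with a window of 2.5 kb, both at 2 with 1 kb, and both at 0 when only peaks at or above the median width of each list were used. With 50 kb, FLI1 without H3K27ac lay at 3 genes, and SSRP1 and H3K27ac at 5 each, against 2 each with 2.5 kb. A window of 5 kb, canonical TSSs, peak midpoints, and the TSSs of all annotated transcripts, an alternative added after the data were seen, kept each of the 4 counts within 1.5 times its value. With 5 kb or the TSSs of all annotated transcripts, PHOX2A joined the genes with SSRP1. The share of the 21 nearby FLI1 peaks that met H3K27ac lay between 14.3% and 37.5% under the other overlap, width and distance settings, inside its interval, and the share that met SSRP1 between 5.88% and 15.9%. Counting only the 17 FLI1 peaks nearest to the lineage gene, also added later, gave 17.6% for H3K27ac and 0% for SSRP1. The former stayed inside its interval, while the latter fell below its interval of 1.17% to 30.4%. No paired analysis was possible because each target has 1 library. Depth is unknown, so how far the absence of a peak depends on it was not tested.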

Other observations

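Markers of lineages foreign to this tumour were mostly without marks within 2.5 kb of a TSS, as were 6962 of all 20090 coding genes. Over all genes, FLI1 without H3K27ac lay at 4.65% within 2.5 kb and at 6.39% within 5 kb. The T cell genes CD3D, CD3E, CD2 and PTPRC had none, and of 3 liver genes APOA2 had H3K27ac alone while ALB and TTR had none. Of 3 muscle genes, MYOD1 had FLI1 without H3K27ac, with the FLI1 peak 2.31 kb from a TSS, and MYOG had its nearest FLI1 peak at 3.19 kb and DES at 17.3 kb. Within 5 kb, FLI1 without H3K27ac thus lay at MYOD1 and MYOG, MYOD1 also had SSRP1, at 3.44 kb, and APOA2 had all 3 marks, with FLI1 at 3.72 kb, SSRP1 at 3.81 kb and H3K27ac at 1.56 kb.

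Peak density around the 8 genes varied. Within 1 Mb on each side, FLI1 had 82 peaks around DBH, 54 around NES, 49 around SOX1 and 47 around PHOX2A, against 27 around HAND2, 26 around OLIG2, 20 around TFAP2B and 4 around GATA3. SOX1 was the gene with most FLI1 peaks in relation to acetylation, with 49 FLI1 and 19 H3K27ac peaks, while DBH had 82 and 132.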
